A study of Mus musculus with 12 samples.

Results

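The cytochrome P450 genes are described here in the renal cortex of ICGN and ICR mice. All probe sets of the array whose annotated symbol begins with Cyp and a digit were taken, apart from those of the vitamin D hydroxylases Cyp24a1, Cyp27b1 and Cyp2r1 and of the sterol demethylase Cyp51. This gave 95 of the 45101 probe sets, 91 of them annotated with 1 symbol and 4 with several, and the 91 stood for 69 of the 18193 genes that the annotation names alone on a probe set. The study compared ICGN mice, whose inherited nephrotic syndrome goes with a mutated Tns2 (the gene of the adaptor protein tensin 2), with ICR mice, the normal strain from whose stock ICGN was bred. Renal cortex was taken from ICGN mice at 8 weeks, ICR mice at 8 weeks, ICGN mice at 4 weeks and ICR mice at 4 weeks, with 3 Affymetrix Mouse Genome 430 2.0 arrays in each of the 4 groups and 12 arrays in all. The labels name no drug or further allele for any group, and ICR is the parent stock rather than a congenic control. Replicates carry numbers in the labels, but how many mice went into 1 of them is not given, and p-values therefore reflect only the spread among the arrays, which may be technical.

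Cytochromes P450 are heme enzymes that place an oxygen atom on a lipid or a foreign compound with electrons passed on by a redox partner. In the kidney they are most abundant in the proximal tubule, where CYP4A enzymes turn arachidonic acid into 20-HETE, a vasoactive lipid that also acts on tubular sodium transport, and CYP2C and CYP2J enzymes turn it into epoxides. Other members hydroxylate sterols and steroids, and in mouse kidney several, Cyp4a12a, Cyp2e1, Cyp2j13, Cyp4b1 and Cyp7b1 among them, are known to be higher in males, while Cyp4a14 is known to be higher in females and to respond to PPAR alpha.

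Signals are MAS5 intensities of each probe set after all arrays had been brought to 1 scale, and fold changes are on the log2(signal + 11.1) scale, which understates the change of dim genes. A signal is a property of its probe set, so levels are compared between arrays and not between genes. Array medians as deposited were 75.3 to 108 at 8 weeks and 17.4 to 19.0 at 4 weeks, while their trimmed means were equal within each age, so each age had been scaled to its own target before deposit. A difference between the ages and one between those scalings cannot be told apart. Log2 values of arrays from 1 group correlated with r of 0.977 to 0.989 across genes. Tns2 had a signal of 80.0 ± 44.4 in ICGN and 308 ± 18.4 in ICR at 8 weeks. At 4 weeks it had 77.8 ± 16.0 in ICGN and 330.5 ± 13.0 in ICR (SD, n = 3 each). Every group thus went with its strain label. The age labels were not checked by Tns2, whose age changes (log2 -0.06 in ICGN and -0.10 in ICR) were not called. Signals of the Y-linked Eif2s3y, Uty and Kdm5d lay above the array median on all 12 arrays (248 to 498, 230 to 412 and 150 to 229), and that of Xist reached 71.2 at most. A gene was tested where its probe set lay above the array median on at least 3 arrays, which held for 12385 genes and for 30 of the 69 P450 genes (43 of the 95 probe sets). Of those 30 genes 20 lay above the array median on all 12 arrays, and 0 had passed through the arrays of 1 group alone. Calls rest on limma's moderated test with a threshold of 0.05 on the p-value adjusted over all 12385 genes.

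Close relatives within the family differed in opposite directions between the strains. The promoters of 2 such pairs, each on 1 chromosome, are printed below. At 8 weeks Cyp2d9 was lower and Cyp2d26 higher in ICGN, and Cyp2j5 was lower and Cyp2j6 higher. Each run holds 250 bases before and 50 after the annotated start, from RefSeq on build GRCm38.p6, read 5′ to 3′ on the gene's strand. Capitals mark the motifs searched that were found on either strand, TATAAA (as TTTATA on the other strand) and a pair of AGGNCA copies 1 base apart, a relaxed form of the DR1 element that HNF4 and PPAR receptors bind.
Cyp2d9, chr15:82452127-82452426 (+ strand): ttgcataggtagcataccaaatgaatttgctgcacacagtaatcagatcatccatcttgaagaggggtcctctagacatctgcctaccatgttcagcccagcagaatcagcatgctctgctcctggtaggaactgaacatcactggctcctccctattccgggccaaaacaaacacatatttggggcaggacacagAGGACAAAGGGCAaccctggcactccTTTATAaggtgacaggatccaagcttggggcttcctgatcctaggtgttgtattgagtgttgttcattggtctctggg
Cyp2d26, chr15:82794196-82794495 (- strand): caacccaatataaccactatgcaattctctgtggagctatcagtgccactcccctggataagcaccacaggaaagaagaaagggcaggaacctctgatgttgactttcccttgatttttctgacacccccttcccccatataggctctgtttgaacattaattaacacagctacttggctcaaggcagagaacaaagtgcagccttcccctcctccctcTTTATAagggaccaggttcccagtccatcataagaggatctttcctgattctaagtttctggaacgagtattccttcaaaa
Cyp2j5, chr4:96664070-96664369 (- strand): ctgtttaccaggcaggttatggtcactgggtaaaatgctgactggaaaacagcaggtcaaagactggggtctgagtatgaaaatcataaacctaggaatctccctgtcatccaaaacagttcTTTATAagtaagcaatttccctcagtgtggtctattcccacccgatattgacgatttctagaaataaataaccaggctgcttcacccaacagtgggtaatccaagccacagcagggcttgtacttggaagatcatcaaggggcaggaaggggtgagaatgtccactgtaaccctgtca
Cyp2j6, chr4:96553602-96553901 (- strand): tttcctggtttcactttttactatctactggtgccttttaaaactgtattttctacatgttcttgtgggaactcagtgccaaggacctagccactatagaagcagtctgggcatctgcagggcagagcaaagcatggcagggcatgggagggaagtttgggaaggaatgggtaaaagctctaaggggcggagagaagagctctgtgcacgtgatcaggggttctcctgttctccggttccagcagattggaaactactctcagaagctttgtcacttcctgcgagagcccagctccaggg
In the best gapped alignment of each pair 186 of 347 columns (53.6%) were identical between Cyp2d9 and Cyp2d26, and 174 of 362 (48.1%) between Cyp2j5 and Cyp2j6. No unrelated promoters were aligned for comparison, so these shares do not measure how far the sequences have parted. Whether the promoters have a part in the opposite directions was not tested. Cyp2d9 and Cyp2d26 both held TTTATA, with its first base 28 and 31 bases before the start. In Cyp2j5 it lay 128 bases before the start, and Cyp2j6 had no match to either motif. The paired AGGNCA was found in Cyp2d9, 54 bases before the start, and in 0.381% of the 32851 promoters in the RefSeq table. TATAAA was found in 13.6% of those promoters and in 8 of the 21 tested P450 genes with a promoter in the table, and CCAAT (not in capitals) in 37.4% and in 9 of the 21. These matches describe letters in a window and not binding sites.

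In ICGN cortex of 8 weeks 10 of the 30 tested P450 genes were higher than in ICR cortex and 6 were lower. Among all genes tested 32.2% were called in this comparison (12.6% higher and 19.6% lower), so the share of P450 genes called (53.3%) lay above that background through the genes that were higher. Changes of 1 or more in size on the log2 scale were called for 6 P450 genes, against 5.58% of all genes. These were the fatty acid hydroxylases Cyp4a14, Cyp4v3 and Cyp4f16 and the epoxygenase Cyp2c23, which were higher, and the fatty acid hydroxylase Cyp4a12a and the steroid hydroxylase Cyp2d9, which were lower. The arrays of the 2 strains did not overlap for 17 of the 30 genes, against 44.6% of all genes. The median size of the log2 difference was 0.63 over the 30 genes and 0.27 over all genes. The split into higher and lower genes moved with the scaling: 8 higher and 9 lower when arrays were set to 1 median over all probe sets, 10 and 3 after quantile normalization, and 10 and 4 on the authors' own scale within an age. In bulk cortex fewer cells of a type and less RNA per cell cannot be told apart.

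**Figure D1:**
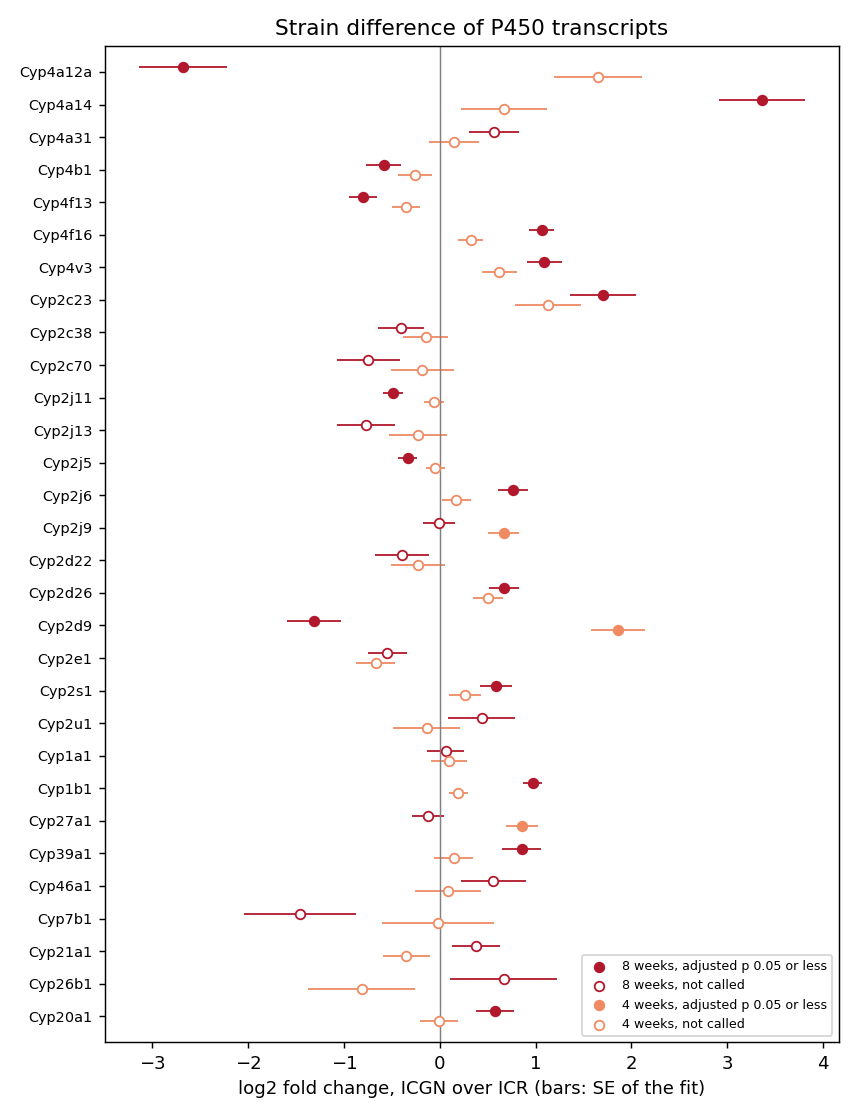
Log2 fold change of ICGN over ICR (x axis) for the 30 tested P450 genes (y axis, grouped by role from the CYP4 genes at the top), at 8 weeks in dark red and at 4 weeks in orange; filled points are called, open points are not, and bars are the SE of the fit. Cyp4a14 (3.36) and Cyp4a12a (-2.68) lie at the 2 ends at 8 weeks, while Cyp2d9 is the gene called on opposite sides at the 2 ages (-1.31 at 8 weeks and 1.86 at 4 weeks).

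Among the fatty acid omega-hydroxylases of family CYP4, 7 of 13 genes were tested. In ICGN cortex of 8 weeks 3 were higher and 3 lower than in ICR cortex, against 12.6% higher and 19.6% lower among all genes. Cyp4a12a, the main 20-HETE synthase of the mouse kidney, had a signal of 635, 1351 and 724 in ICGN and of 4027, 6623 and 6383 in ICR cortex at 8 weeks. The lowest ICR array was thus far above the highest ICGN array. The transcript was 6.42-fold lower in ICGN (log2 fold change -2.68 ± 0.46 SE, adjusted p = 0.000709). Cyp4a14, a lauric acid hydroxylase, ran the other way, with 1158, 209 and 869.5 in ICGN and 35.9, 62.3 and 49.3 in ICR. It was 10.3-fold higher in ICGN (log2 fold change 3.36 ± 0.45 SE, adjusted p = 0.00012), and by 4.10 on the log2 scale without ICGN replicate 2. That array, the 1 with the lowest Cyp4a14 signal among the ICGN arrays, also had the highest Cyp4a12a signal among them. The annotation lists Cyp4a12a alone for its probe set, and transcripts of its near-identical copy Cyp4a12b may add to that signal.

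Cyp4v3, whose human relative is an omega-hydroxylase mutated in Bietti crystalline dystrophy, had 208, 149.7 and 221 in ICGN and 77.1, 88.9 and 85.3 in ICR at 8 weeks (log2 fold change 1.09 ± 0.18 SE, 2.13-fold, adjusted p = 0.000608). Cyp4f16 had 113, 129 and 148 in ICGN and 56.7, 53.4 and 58.2 in ICR (log2 fold change 1.06 ± 0.13 SE, 2.09-fold, adjusted p = 6.7e-05), with no overlap in either gene. Its relative Cyp4f13 was lower, with a log2 difference of -0.80 (108 ± 6.79 in ICGN and 196 ± 25.3 in ICR, SD, n = 3 each, adjusted p = 0.00108). Members of the CYP4F group hydroxylate leukotrienes and long fatty acids at the omega carbon. Cyp4b1, which hydroxylates short fatty acids and is known to depend on androgen in mouse kidney, had 8962, 12189 and 9962 in ICGN and 13257, 15940.5 and 17384 in ICR (log2 fold change -0.58 ± 0.18 SE, 1.50-fold, adjusted p = 0.0246). The call of Cyp4b1 was lost without ICGN replicate 1 (adjusted p = 0.0975) or 3 (0.0716), and without ICR replicate 2 (0.0635) or 3 (0.0894). It was also lost after quantile normalization (0.151) and on the authors' scale (0.0577).

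**Figure D2:**
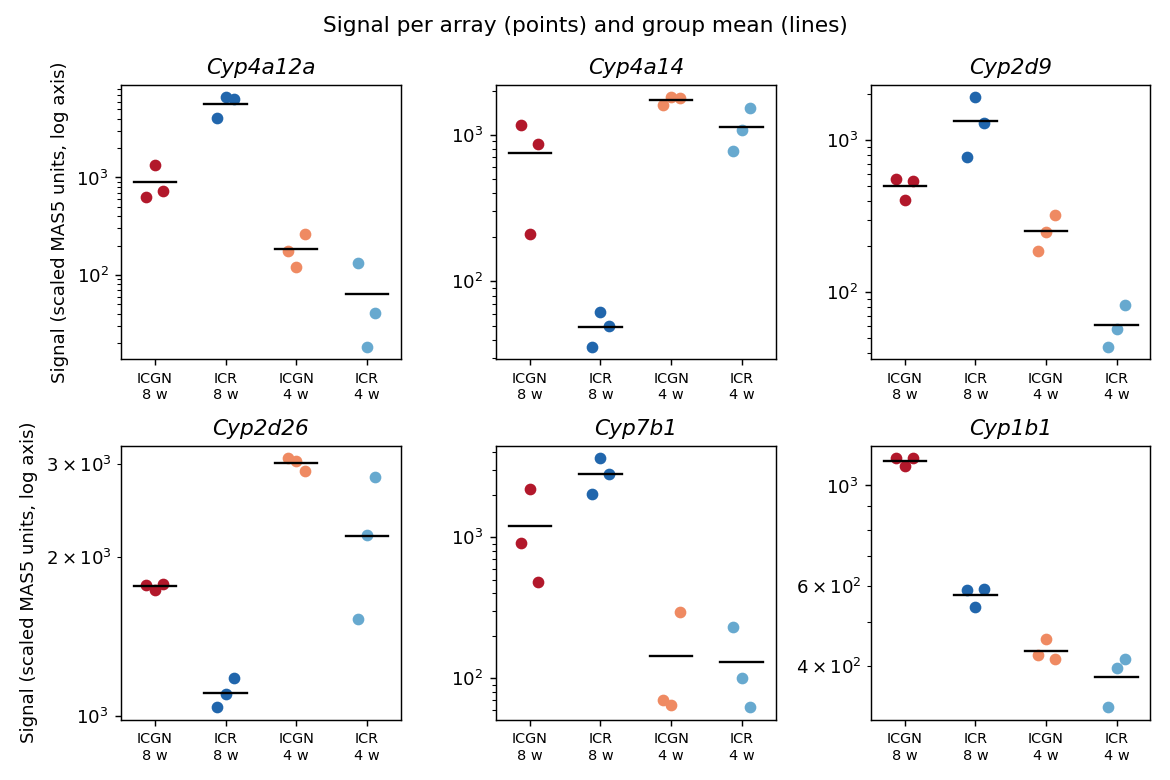
Scaled MAS5 signal (y axis, log scale) of 6 P450 genes on each array (points) with the group mean (lines), for ICGN and ICR at 8 weeks and ICGN and ICR at 4 weeks from left to right. Cyp4a12a spans 18.5 to 6623 over the 12 arrays and Cyp4a14 35.9 to 1795 in the opposite order of groups at 8 weeks; the Cyp1b1 arrays of ICGN at 8 weeks (1103 to 1148) lie above all others.

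Of the CYP2C and CYP2J genes, the epoxygenase group, 8 of 16 were tested. In ICGN cortex of 8 weeks 2 of them were higher (12.6% of all genes) and 2 lower (19.6%). Cyp2c23, an arachidonic acid epoxygenase of mouse kidney, had 195, 82.5 and 164 in ICGN and 40.2, 48.9 and 20.6 in ICR, with no overlap (log2 fold change 1.71 ± 0.34 SE, 3.26-fold, adjusted p = 0.00208). The ICR signals were dim, and the log2 difference was 2.01 with no offset and 1.21 with 4 times the offset, called with both. The probe set of Cyp2c23, 1424576_s_at, is of a kind that may take up transcripts of its relatives. Cyp2j5, an epoxygenase of the proximal tubule, had 9042, 11369.8 and 10147 in ICGN and 12128, 12924 and 13378 in ICR (log2 fold change -0.34 ± 0.10 SE, 1.26-fold, adjusted p = 0.0202). Its arrays did not overlap, but the call was lost without ICGN replicate 1 (adjusted p = 0.0897) or 3 (0.0555), without ICR replicate 2 (0.0513) or 3 (0.0639), and on 2 other scalings, where quantile normalization left -0.02. Cyp2j11 had 2077, 2124 and 2103 in ICGN and 2933, 3042 and 2905 in ICR (log2 fold change -0.49 ± 0.10 SE, 1.41-fold, adjusted p = 0.00285). The spread within each strain was small against that gap, although quantile normalization reduced it to -0.26 (adjusted p = 0.0653). Cyp2j6 was the CYP2J gene called in the other direction, with 182, 195 and 198 in ICGN and 127, 99.3 and 100.5 in ICR (log2 fold change 0.76 ± 0.15 SE, 1.70-fold, adjusted p = 0.00212). The remaining members were not called: Cyp2j13 had 2489 ± 417 in ICGN and 4261 ± 733 in ICR (adjusted p = 0.0675), and Cyp2j9, Cyp2c38 and Cyp2c70 had log2 differences of -0.01, -0.41 and -0.75.

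In the rest of family CYP2, whose members oxidise drugs, steroids and small foreign compounds, 6 of 18 genes were tested. ICGN cortex had 2 of these at a higher level (12.6% of all genes) and 1 at a lower level (19.6%) at 8 weeks. Cyp2d9, a testosterone 16 alpha-hydroxylase known from the liver of male mice, had 556, 402 and 536 in ICGN and 776, 1905 and 1289 in ICR (log2 fold change -1.31 ± 0.28 SE, 2.48-fold, adjusted p = 0.00332). The ICR arrays varied more than the ICGN arrays, but the 2 strains did not overlap. Cyp2d26, a neighbour of Cyp2d9 on chromosome 15, had 1771, 1734 and 1777 in ICGN and 1039.6, 1101 and 1181 in ICR (log2 fold change 0.67 ± 0.16 SE, 1.59-fold, adjusted p = 0.00564), again with no overlap. The genes of the CYP2D cluster are alike in sequence, and whether the probe set of Cyp2d9 takes up transcripts of its relatives was not tested. Cyp2s1 was higher by 0.59 on the log2 scale (341 ± 37.3 in ICGN and 222 ± 10.9 in ICR, SD, n = 3 each, adjusted p = 0.0156), a call lost without ICGN replicate 1 (adjusted p = 0.0618) and without ICR replicate 3 (0.0516). Cyp2e1, which oxidises ethanol, acetone and other small molecules, had 9281, 11722 and 11038 in ICGN and 13812, 15895 and 17156 in ICR at 8 weeks. Its arrays did not overlap, yet the difference missed the threshold (log2 -0.55 ± 0.20 SE, adjusted p = 0.0527). Cyp2d22 and Cyp2u1 were not called (log2 differences -0.39 and 0.44).

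Cyp1b1, which oxidises estrogens and polycyclic aromatic hydrocarbons, was the CYP1 gene that differed at 8 weeks. It had 1148, 1103 and 1148 in ICGN and 589, 539.6 and 591 in ICR (log2 fold change 0.97 ± 0.10 SE, 1.96-fold, adjusted p = 1.5e-05), and the gap was many times the spread in either strain. Cyp1a1, the classic target of the aryl hydrocarbon receptor, had 39.8 ± 2.46 in ICGN and 37.7 ± 2.95 in ICR (SD, n = 3 each, adjusted p = 0.841), close to the array medians. Among sterol hydroxylases, Cyp39a1, which acts on 24-hydroxycholesterol, was higher in ICGN (115, 99.6 and 125, against 68.9, 49.2 and 55.8 in ICR, log2 fold change 0.86 ± 0.20 SE, 1.81-fold, adjusted p = 0.00599). Cyp7b1, the oxysterol 7 alpha-hydroxylase, had 911, 2213 and 479 in ICGN and 2029, 3633 and 2799 in ICR. ICGN replicate 2 lay within the ICR range while the other two arrays lay below it, and the difference was not called (log2 -1.46 ± 0.58 SE, adjusted p = 0.0705). Cyp27a1, the mitochondrial sterol 27-hydroxylase, had 575 ± 72.1 in ICGN and 635 ± 127 in ICR (adjusted p = 0.601).

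Cyp20a1, an orphan P450 without a settled substrate, had 743, 926 and 844 in ICGN and 808, 388 and 547 in ICR at 8 weeks (log2 fold change 0.58 ± 0.20 SE, 1.49-fold, adjusted p = 0.0386). ICR replicate 1 lay within the ICGN range, and the call was lost under 11 of the alternative settings, among them leaving out ICGN replicate 2 (adjusted p = 0.117) or 3 (0.0912) and ICR replicate 2 (0.161) or 3 (0.0899). Cyp21a1, the steroid 21-hydroxylase of the adrenal cortex, had 58.1 ± 7.01 in ICGN and 43.2 ± 14.3 in ICR, and Cyp26b1, which clears retinoic acid, 73.5 ± 14.4 in ICGN and 55.1 ± 45.6 in ICR (SD, n = 3 each). Neither was called (adjusted p = 0.264 and 0.389). Both lay at or below the array median on all 3 ICGN arrays at 4 weeks, as did Cyp2c70 in ICGN at both ages and Cyp2u1 in ICGN at 8 weeks, so their folds rest on dim signals.

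At 4 weeks 3 of the 30 P450 genes were called, all higher in ICGN, against 4.22% of all genes (2.09% higher), and Cyp2d9 was the 1 with a called change of 1 or more (1.15% of all genes). Cyp2d9 had 187, 247 and 320.3 in ICGN and 44.0, 57.3 and 82.8 in ICR, with no overlap (log2 fold change 1.86 ± 0.28 SE, 3.63-fold, adjusted p = 0.00242). It was thus higher in ICGN at 4 weeks and lower at 8 weeks. Cyp27a1 had 364, 364 and 519 in ICGN and 216, 205 and 247 in ICR (log2 fold change 0.85 ± 0.17 SE, 1.81-fold, adjusted p = 0.0108), also with no overlap. Cyp2j9 had 123, 126 and 141 in ICGN and 84.4, 60.5 and 91.0 in ICR (log2 fold change 0.67 ± 0.16 SE, 1.59-fold, adjusted p = 0.0372). The Cyp2j9 call was lost without ICGN replicate 1 (adjusted p = 0.0854), 2 (0.101) or 3 (0.108), and without ICR replicate 1 (0.0572) or 2 (0.131). The arrays of the 2 strains did not overlap for 10 of the 30 genes, against 24.9% of all genes. At an unadjusted p under 0.05, limma's test gave 8 P450 genes higher (8.44% of all genes) and 2 lower (10.1%).

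Several genes with a wide gap at 8 weeks had a smaller or a less even one at 4 weeks. Cyp4a12a had 176, 120.5 and 261 in ICGN and 132, 18.5 and 40.5 in ICR at 4 weeks, where ICR replicate 1 lay within the ICGN range, and was not called (log2 1.65 ± 0.46 SE, adjusted p = 0.0624). Cyp4a14 had 1599, 1795 and 1778 in ICGN and 780.0, 1069 and 1513 in ICR (log2 0.67 ± 0.45 SE, adjusted p = 0.475). Cyp1b1 had 433 ± 23.3 in ICGN and 378 ± 47.2 in ICR (SD, n = 3 each, adjusted p = 0.323), and Cyp2c23 150.4, 184 and 105 in ICGN and 44.0, 46.0 and 101 in ICR (log2 1.13 ± 0.34 SE, adjusted p = 0.0862). Cyp2e1 was called at neither age, and its gap was no smaller at 4 weeks than at 8 weeks (log2 -0.55). At 4 weeks it had 5384 ± 1863 in ICGN and 8403 ± 1967 in ICR (SD, n = 3 each, log2 -0.67 ± 0.20 SE, adjusted p = 0.0856). The 6 CYP4 genes called at 8 weeks were not called at 4 weeks, where 3 of the 7 tested had an unadjusted p under 0.05 with a higher value in ICGN (8.44% of all genes) and 1 with a lower value (10.1%). Whether such a gap differed between the ages is the question of the interaction.

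The strain difference itself changed between the ages, by the interaction of strain and age, for 6 P450 genes, against 9.26% of all genes. It became more positive at 8 weeks for Cyp1b1, Cyp4a14 and Cyp4f16 (4.27% of all genes) and more negative for Cyp27a1, Cyp2d9 and Cyp4a12a (4.99% of all genes). Cyp4a12a had the widest shift, -4.33 ± 0.65 SE on the log2 scale (adjusted p = 0.00223), and -4.95 without ICR replicate 1 at 4 weeks. For Cyp2d9 it was -3.17 ± 0.40 SE (adjusted p = 0.00138) and for Cyp4a14 2.70 ± 0.63 SE (adjusted p = 0.0199). The Cyp4a14 value was 3.43 without ICGN replicate 2 at 8 weeks, and its call was lost without ICGN replicate 3 (adjusted p = 0.0558) and with the robust variance estimate (0.0645). These were the 3 P450 genes with a called interaction of 1 or more in size, against 2.78% of all genes. The smaller shifts were 0.78 (adjusted p = 0.00574) for Cyp1b1, 0.74 (adjusted p = 0.0263) for Cyp4f16 and -0.98 (adjusted p = 0.0223) for Cyp27a1. The Cyp27a1 call was lost without ICR replicate 3 at 8 weeks (adjusted p = 0.0515) or ICR replicate 2 at 4 weeks (0.053). That of Cyp4f16 was lost without ICGN replicate 3 at 8 weeks (0.0729) and without ICGN replicate 2 (0.0652) or 3 (0.0556) or ICR replicate 1 (0.0537) at 4 weeks. The Cyp4f16 call was also lost with 1 median over all probe sets (0.091) and after quantile normalization (0.0572). Without the filter (0.074) and with the mean of its probe sets (0.138) it was lost too.

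From the side of age, ICGN cortex had 9 P450 genes higher (11.2% of all genes) and 3 lower (11.9%) at 8 than at 4 weeks, and 23% of all genes were called. ICR cortex had 12 P450 genes higher (18.7% of all genes) and 4 lower (14.3%), and 33.1% of all genes were called. Changes of 1 or more were called for 5 P450 genes in ICGN (3.45% of all genes) and 7 in ICR (5.76%). The arrays of the 2 ages did not overlap for 15 of the 30 genes in ICGN (42.4% of all genes) and 16 in ICR (43.8%). Cyp1b1, Cyp2d9, Cyp2e1, Cyp2j13, Cyp4a12a, Cyp4v3 and Cyp7b1 were called higher at 8 weeks in both strains by the brightest probe set, and Cyp2d26 and Cyp4a14 lower. For Cyp1b1 in ICR the 2 probe sets disagreed. The age change in ICGN and the strain difference at 8 weeks use the same ICGN arrays of 8 weeks, and the age change in ICR shares its own with that difference, so the values below are the same arrays seen from another side.

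**Figure D3:**
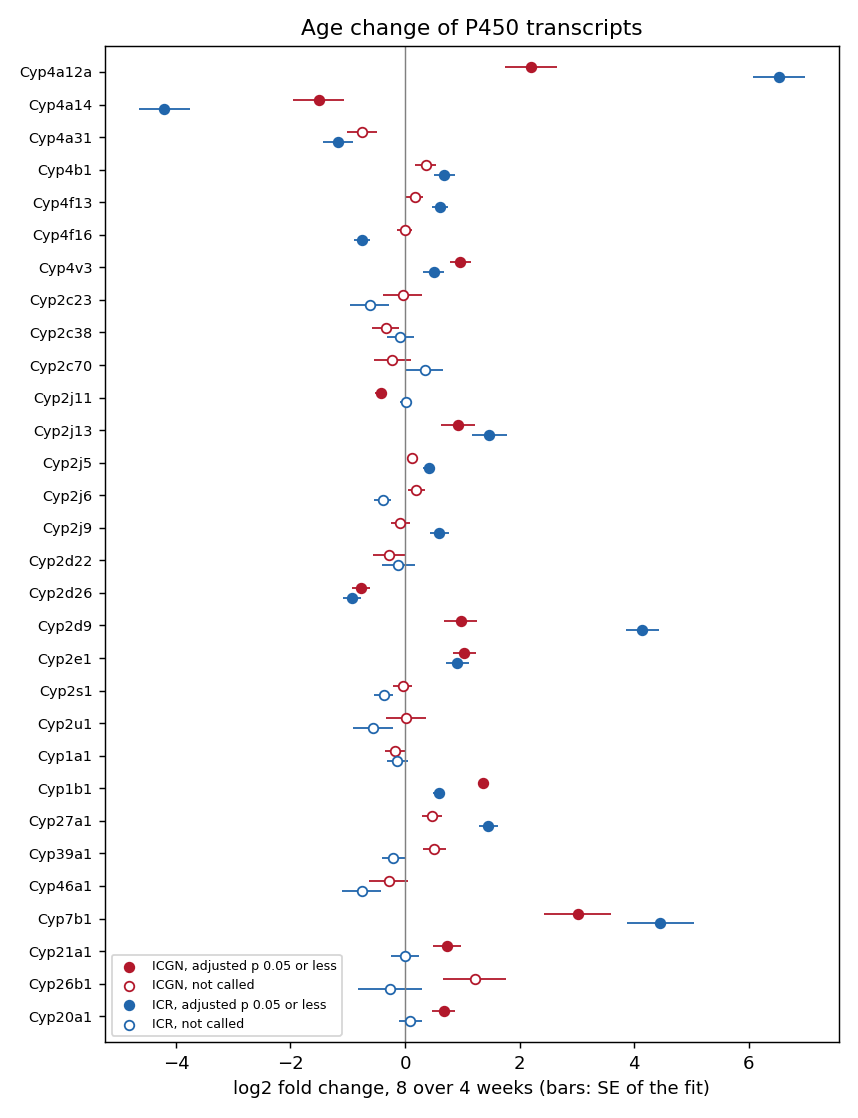
Log2 fold change of 8 over 4 weeks (x axis) for the 30 tested P450 genes (y axis), in ICGN (dark red) and ICR (blue); filled points are called, open points are not, and bars are the SE of the fit. Cyp4a12a, Cyp7b1, Cyp2d9 and Cyp4a14 are at 2.20, 3.02, 0.97 and -1.51 in ICGN and at 6.53, 4.46, 4.15 and -4.20 in ICR, where the first 3 lie farthest to the right and Cyp4a14 farthest to the left.

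Among the CYP4 genes, Cyp4a12a had 635, 1351 and 724 at 8 weeks and 176, 120.5 and 261 at 4 weeks in ICGN (log2 fold change 2.20 ± 0.46 SE, 4.59-fold, adjusted p = 0.00406). In ICR it had 4027, 6623 and 6383 at 8 weeks and 132, 18.5 and 40.5 at 4 weeks (log2 fold change 6.53 ± 0.46 SE, 92.3-fold, adjusted p = 5.94e-07), and a change of 7.15 on the log2 scale without ICR replicate 1 at 4 weeks. The gene lay above the array median on 11 of the 12 arrays, but 2 of its ICR signals at 4 weeks were dim, and the fold rests on these. The log2 change in ICR was 6.90 with no offset and 5.84 with 4 times the offset. The gene was higher at 8 weeks on every array of both strains, by far more in ICR, as the interaction above tests. Cyp4a14 had 1158, 209 and 869.5 at 8 weeks and 1599, 1795 and 1778 at 4 weeks in ICGN (log2 fold change -1.51 ± 0.45 SE, 2.84-fold, adjusted p = 0.0267). In ICR it had 35.9, 62.3 and 49.3 at 8 weeks and 780.0, 1069 and 1513 at 4 weeks (log2 fold change -4.20 ± 0.45 SE, 18.4-fold, adjusted p = 1.73e-05). The ICGN change was -0.77 without replicate 2 at 8 weeks, and its call was lost without replicate 1 (adjusted p = 0.0592), 2 (0.0756) or 3 (0.0637) at 4 weeks. Cyp4v3 changed by 0.97 (adjusted p = 0.00221) in ICGN and by 0.50 (adjusted p = 0.0499) in ICR, where the call held without ICR replicate 2 of 4 weeks and was lost without each of the other ICR arrays (adjusted p from 0.062 to 0.19). Cyp4b1, Cyp4f13, Cyp4f16 and Cyp4a31 were not called in ICGN (0.36, 0.17, -0.01 and -0.76 on the log2 scale). In ICR the first 2 were called higher at 8 weeks (0.68 and 0.61), and Cyp4f16 lower (-0.75). The brighter probe set of Cyp4a31 was called with -1.17 in ICR, and its other probe set lay on the opposite side.

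Cyp2d9 had 556, 402 and 536 at 8 weeks and 187, 247 and 320.3 at 4 weeks in ICGN (log2 fold change 0.97 ± 0.28 SE, 1.96-fold, adjusted p = 0.0247). In ICR the signals were 776, 1905 and 1289 at 8 weeks and 44.0, 57.3 and 82.8 at 4 weeks (log2 fold change 4.15 ± 0.28 SE, 17.7-fold, adjusted p = 5.32e-07), and the ages did not overlap in either strain. The call in ICGN was lost without replicate 1 (adjusted p = 0.0773) or 3 (0.0819) at 8 weeks and without replicate 1 (0.104) or 2 (0.0654) at 4 weeks. Cyp2d26 was lower at 8 weeks in both strains, with 1761 ± 23.6 at 8 weeks and 3005 ± 87.5 at 4 weeks in ICGN (log2 -0.77, adjusted p = 0.00361) and 1107 ± 71.1 at 8 weeks and 2185 ± 649 at 4 weeks in ICR (log2 -0.93, adjusted p = 0.000574, SD, n = 3 each). Cyp2e1 had 9281, 11722 and 11038 at 8 weeks and 4337, 4279 and 7534 at 4 weeks in ICGN (log2 fold change 1.03 ± 0.20 SE, 2.05-fold, adjusted p = 0.00284), and changed by 0.91 (adjusted p = 0.0038) in ICR. The interaction was 0.12 ± 0.29 SE and was not called.

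In the CYP2J group Cyp2j13 was called higher at 8 weeks in both strains (0.93 (adjusted p = 0.0421) in ICGN and 1.47 (adjusted p = 0.0024) in ICR). Its ICGN call was lost without replicate 2 (adjusted p = 0.129) or 3 (0.105) at 8 weeks and without replicate 1 (0.178) or 2 (0.141) at 4 weeks. Cyp2j11 was lower at 8 weeks in ICGN, with 2077, 2124 and 2103 at 8 weeks and 2711, 3046 and 2704 at 4 weeks (log2 fold change -0.42 ± 0.10 SE, 1.34-fold, adjusted p = 0.0106), a call lost without replicate 2 at 4 weeks (adjusted p = 0.0543). In ICR it had 2933, 3042 and 2905 at 8 weeks and 3204, 2425 and 3238 at 4 weeks (adjusted p = 0.931), and the interaction was not called (adjusted p = 0.081). Cyp2j9 was called higher at 8 weeks in ICR (0.60, adjusted p = 0.0134), a call lost without ICR replicate 3 at 8 weeks (adjusted p = 0.0543) or replicate 2 at 4 weeks (0.0625). The tested CYP2C genes were not called with age in either strain, and the highest size among them was that of Cyp2c23 in ICR (-0.62 ± 0.34 SE).

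Cyp7b1 had 911, 2213 and 479 at 8 weeks and 70.6, 65.1 and 294 at 4 weeks in ICGN (log2 fold change 3.02 ± 0.58 SE, 8.09-fold, adjusted p = 0.00256), and 3.67 on the log2 scale without replicate 3 at 4 weeks. In ICR it had 2029, 3633 and 2799 at 8 weeks and 231, 100.2 and 62.4 at 4 weeks (log2 fold change 4.46 ± 0.58 SE, 21.9-fold, adjusted p = 8.3e-05). The lowest array of 8 weeks lay above the highest of 4 weeks in both strains, and the interaction was not called (log2 -1.44 ± 0.82 SE, adjusted p = 0.294). Cyp27a1 had 638, 496 and 591 at 8 weeks and 364, 364 and 519 at 4 weeks in ICGN and was not called (0.47 ± 0.17 SE, adjusted p = 0.0569). In ICR it had 489, 688 and 727 at 8 weeks and 216, 205 and 247 at 4 weeks (log2 fold change 1.45 ± 0.17 SE, 2.73-fold, adjusted p = 3.05e-05). Cyp1b1 was higher at 8 weeks in ICGN, with 1148, 1103 and 1148 at 8 weeks and 424, 459 and 415 at 4 weeks (log2 fold change 1.37 ± 0.10 SE, 2.58-fold, adjusted p = 2.3e-06). In ICR its brighter probe set changed by 0.59 (adjusted p = 0.00053), but the other by -0.08 (adjusted p = 0.73), and the call was lost with the mean of both (0.25, adjusted p = 0.108), so no direction is given for ICR. Cyp20a1 and Cyp21a1 were called higher at 8 weeks in ICGN (0.68 (adjusted p = 0.0243) and 0.73 (adjusted p = 0.0475)). The Cyp21a1 call was lost without any 1 of the 6 ICGN arrays (adjusted p from 0.0796 to 0.129). The Cyp20a1 call was lost without replicate 2 or 3 at 8 weeks and without replicate 1 or 3 at 4 weeks (adjusted p from 0.054 to 0.0881). With the mean of its 3 probe sets the Cyp20a1 change was 0.19 (adjusted p = 0.445), and the other 2 probe sets gave 0.13 and -0.29, neither called.

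**Figure D4:**
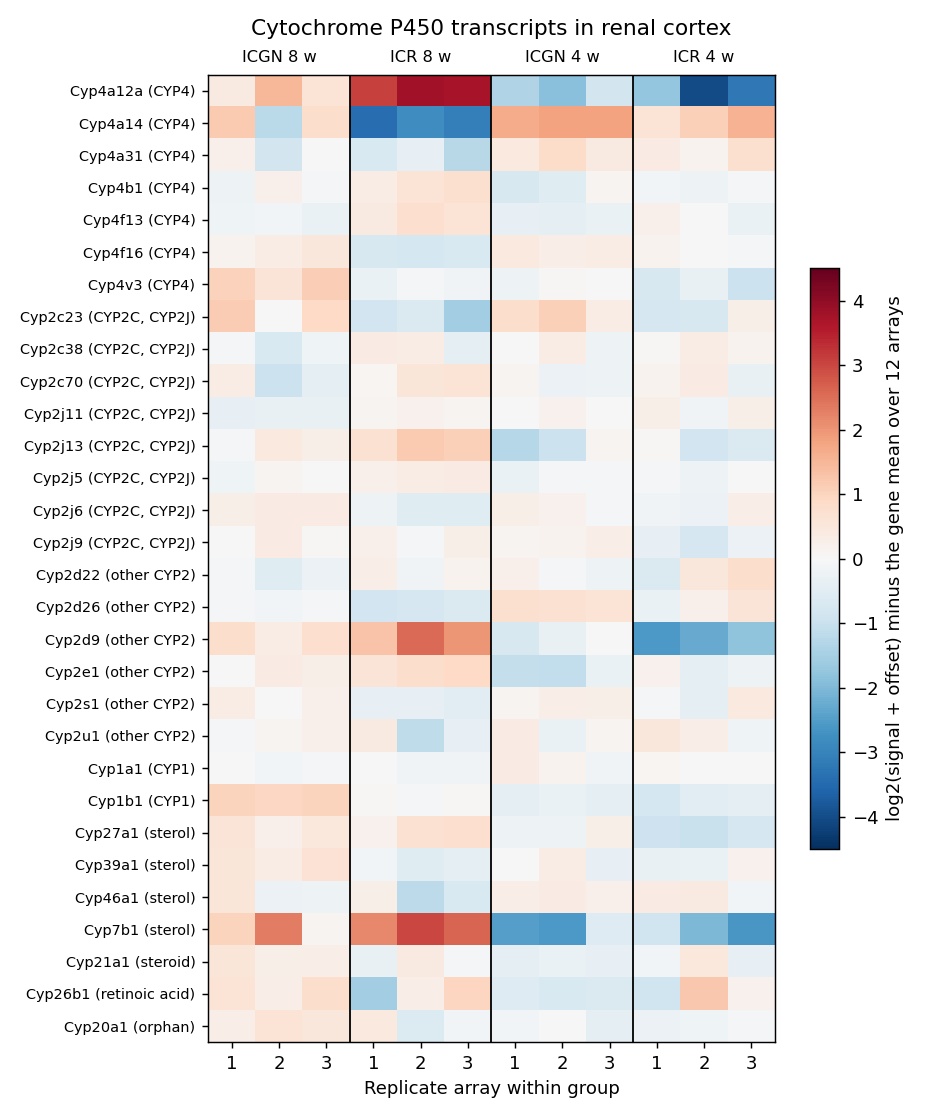
Each cell is the log2(signal + offset) of 1 of the 30 tested P450 genes (rows, grouped by role) on 1 array (columns, replicates 1 to 3 within each group) minus that gene's mean over the 12 arrays; red is above and blue below the mean. Cyp4a12a, Cyp2d9 and Cyp7b1 are darkest red in ICR at 8 weeks, where Cyp4a14 is darkest blue, and the ICGN arrays of 8 weeks are paler in these 4 genes apart from replicate 2 in Cyp7b1.

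Some members had more than 1 probe set, and these did not all run the same way. Of the 43 member probe sets that passed the filter, 15 had a called rise and 10 a called fall in ICGN against ICR at 8 weeks (27% of all probe sets were called), and 3 a rise at 4 weeks (3.09%). The interaction called 4 of them in each direction (6.35% of all probe sets), and with age 11 were higher and 6 lower in ICGN (22.7% called) and 14 higher and 6 lower in ICR (30.8%). For Cyp4a31 the age change in ICR was -1.16 (adjusted p = 0.0046) by 1424943_at and 0.95 (adjusted p = 0.381) by 1440134_at. For Cyp2j5 it was 0.43 (adjusted p = 0.00572) by 1417531_at and -0.20 (adjusted p = 0.209) by 1417532_at, so no direction is given for the age change of either gene. Cyp2d22 was lower in ICGN at 8 weeks by 1419040_at (-0.67, adjusted p = 0.0308) and not called by 1419039_at, the brighter one. Cyp7b1 was lower in ICGN at 8 weeks by 1421075_s_at (-1.52, adjusted p = 0.0461) and not called by 1421074_at (-1.49, adjusted p = 0.0731). The Cyp4f16 interaction was 0.46 (adjusted p = 0.543) by its second probe set, and the Cyp4v3 age change in ICR 0.35 (adjusted p = 0.214). Probe sets with several symbols name no single gene. One of them, 1422230_s_at, listed 2 genes of subfamily CYP2A, which oxidise coumarin and steroids. It had 2654, 3014 and 2527 in ICGN and 3881, 6318 and 5519 in ICR at 8 weeks (log2 -0.95 ± 0.29 SE, adjusted p = 0.029), with an age change of 1.20 (adjusted p = 0.0101) in ICGN and 2.98 (adjusted p = 8.92e-06) in ICR and an interaction of -1.78 (adjusted p = 0.0244). Another, 1424853_s_at, listed 2 genes of subfamily CYP4A and was higher in ICGN at 8 weeks (7823, 5317 and 7725 in ICGN and 4120.3, 3849 and 4440.0 in ICR, log2 0.70, adjusted p = 0.00138). The probe set 1430172_a_at, with 2 genes of subfamily CYP4F, was also higher (0.98, adjusted p = 0.00236), and 1419704_at, with 2 of CYP3A, did not pass the filter.

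The other 39 P450 genes did not pass the filter, so the test says nothing of them. These were all 5 CYP3A genes, 12 of the CYP2 genes outside the CYP2C and CYP2J groups (those of subfamily CYP2B among them), 8 CYP2C genes, 6 CYP4 genes, 4 steroid-synthesis genes (Cyp11a1, Cyp11b1, Cyp11b2 and Cyp17a1), the bile acid genes Cyp7a1 and Cyp8b1, and Cyp1a2 and Cyp26a1. The highest group mean among their probe sets was 69.9, for Cyp2f2, and that of the CYP3A genes was 34.2. Every one of these probe sets lay above the array median on fewer than 3 arrays.

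Genes that serve the P450 enzymes were set beside them from lists chosen with earlier results of these data known. Of 7 tested redox partners 4 were lower in ICGN at 8 weeks: Cyb5b (-0.63, adjusted p = 0.00029), the mitochondrial electron carrier Fdx1 (-0.61, adjusted p = 0.000796), Pgrmc2 (-0.40) and Cyb5a (-0.36). The list had a median of -0.36, against -0.07 over all genes. Of 8 heme synthesis genes 4 were lower, with ferrochelatase Fech the farthest (1824 ± 55.4 in ICGN and 3336 ± 402 in ICR, SD, n = 3 each, log2 -0.86 (adjusted p = 7.33e-05)), then Uros (-0.40), Alad (-0.40) and the mitochondrial glycine carrier Slc25a38 (-0.37). Among all genes 19.6% were lower. The calls of Cyb5a, Pgrmc2 and Alad were lost after quantile normalization (adjusted p = 0.421, 0.0538 and 0.16), that of Cyb5a also without ICGN replicate 1 (0.0523), that of Slc25a38 on the authors' scale (0.0812) and that of Uros with the mean of its probe sets (0.0963). At 4 weeks Cpox was higher (1.02, adjusted p = 0.0166) and Alas1, the rate-limiting step, lower (-0.77, adjusted p = 0.0185) in ICGN. The Cpox call was lost without any 1 of the 3 ICGN arrays (adjusted p = 0.0511 to 0.0577) and with the mean of its probe sets (0.41, adjusted p = 0.222). The Alas1 call was lost without ICGN replicate 1 or 2 or ICR replicate 2 or 3 (adjusted p = 0.0524 to 0.0951) and with the mean of its probe sets (adjusted p = 0.0718). Hmox1, which breaks heme down, had 1366, 1716 and 409 in ICGN and 124, 63.6 and 96.0 in ICR at 4 weeks (log2 fold change 3.28 ± 0.40 SE, 9.75-fold, adjusted p = 0.00083) and was not called at 8 weeks (-0.05, adjusted p = 0.947). Hmox1 lay outside the rule for named genes and was added after its values were seen. Por, the main electron donor, was not analysed here.

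At 8 weeks 22 regulators of P450 genes were tested, of which 2 were higher and 5 lower in ICGN cortex, shares near those of all genes (12.6% higher and 19.6% lower). The repressor Bcl6 had 738, 733 and 703 in ICGN and 394, 136 and 112 in ICR (log2 fold change 1.92 ± 0.35 SE, 3.79-fold, adjusted p = 0.00114), and Arnt, the partner of the aryl hydrocarbon receptor, was higher by 1.10 (adjusted p = 0.00384). The mean of the Arnt probe sets gave 0.28 and no call (adjusted p = 0.104). The Ppard call named next was lost without any of 4 single arrays and on the authors' scale (adjusted p = 0.0827 to 0.127). Lower were the growth hormone receptor Ghr (-0.78, adjusted p = 5.59e-05), Ppard (-0.62), Hnf4a, a regulator of proximal tubule genes (4050.5 ± 729 in ICGN and 6118 ± 217 in ICR, SD, n = 3 each, log2 -0.61 (adjusted p = 0.00112)), Rxra and Nr1h4. Ppara was not called (-0.18 (adjusted p = 0.353) at 8 weeks and 0.45 (adjusted p = 0.0951) at 4 weeks). The 21 tested PPAR alpha targets split into 4 higher, 3 lower and 14 not called at 8 weeks, with a median of -0.03, against 12.6% higher and 19.6% lower among all genes. The higher ones were Acot1 (1.40), Angptl4 (1.25), Pdk4 (0.93) and Acot3 (0.81), and the lower ones the fatty acid oxidation genes Ehhadh (-0.77) and Acadm (-0.59) and the thioesterase Acot4 (-0.28). The Acot3 and Pdk4 calls were each lost when any of 3 single arrays was left out (adjusted p = 0.0618 to 0.0652 and 0.0592 to 0.0871). The calls of Hnf4a, Rxra, Nr1h4, Ehhadh, Acadm and Acot4 were not checked under the alternative settings.

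Among 11 tested genes that release or use arachidonic acid and its epoxides, ICGN cortex of 8 weeks had 6 at a higher and 1 at a lower level. Their median log2 difference was 0.50. Of all genes 12.6% were higher and 19.6% lower, with a median of -0.07. Ephx2, the soluble hydrolase that removes epoxides, had 2352, 3234 and 3269.8 in ICGN and 4609, 5302 and 5651 in ICR (log2 fold change -0.82 ± 0.15 SE, 1.77-fold, adjusted p = 0.000889), with no overlap. Cyclooxygenase Ptgs2 had 56.2, 43.7 and 69.0 in ICGN and 1.65, 0.547 and 1.37 in ICR (log2 fold change 2.44 ± 0.28 SE, 5.44-fold, adjusted p = 3.85e-05), and its ICR signals lay below the offset, so that fold depends on the offset. The prostaglandin D synthase Ptgds was higher by 1.14 (adjusted p = 0.00144) at 8 weeks and lower at 4 weeks (-1.50, adjusted p = 0.00163). The phospholipase Pla2g4a (1.06) and the epoxide hydrolase Ephx1 (0.68) were also higher at 8 weeks. Ephx1 was higher at 4 weeks too (1.07), a call lost without any of 4 single arrays (adjusted p = 0.0602 to 0.104). Its call at 8 weeks was not checked under the alternative settings.

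Markers of cell types moved beside these results. At 8 weeks 9 of 11 proximal tubule markers were lower in ICGN (19.6% of all genes). The summed signal of the 11 was 59402 to 68513 in ICGN and 84167 to 95755 in ICR. At 4 weeks the sums were 63944 to 79000.4 in ICGN and 78277 to 81650.0 in ICR. Of 5 macrophage markers 4 were higher in ICGN at 8 weeks (12.6% of all genes) and 3 at 4 weeks (2.09%). Their summed signal at 8 weeks was 3424 to 4218 in ICGN and 2123 to 3065 in ICR. Of 4 loop and distal tubule markers 2 were lower in ICGN at both ages (19.6% of all genes at 8 weeks and 2.13% at 4 weeks). These were Pvalb (log2 -2.80 at 8 weeks and -1.97 at 4 weeks) and Slc12a3 (-1.07 and -1.12). At 4 weeks 0 of the 11 proximal tubule markers were called. In limma's test 3 of the 11 were lower at an unadjusted p under 0.05 (10.1% of all genes). The loop and distal sums were 13800.2 to 15554 in ICGN and 16213 to 18117 in ICR at 8 weeks, and 15287 to 17620.1 in ICGN and 19405 to 23943 in ICR at 4 weeks. Of 10 tested genes known to be higher in male mouse kidney 8 were lower in ICGN at 8 weeks (19.6% of all genes). Their median was -1.23, against -0.07 over all genes. At 4 weeks 1 of the 10 was higher (2.09% of all genes) and 2 were lower (2.13%). The list then had a median of -0.50, against -0.02 over all genes. Of 6 known to be higher in females 1 was higher (12.6% of all genes) and 2 lower (19.6%) in ICGN at 8 weeks. At 4 weeks 1 of these 6 was lower (2.13% of all genes). The part of proximal and distal tubule content, macrophage content and sex-dependent expression in the P450 differences was not tested. Of 8 adrenal markers 6 lay at or below the array median on every ICGN array of 8 weeks and 5 on every ICR array of 8 weeks, with sums of 156 to 275 in ICGN and 148 to 274 in ICR. Of 7 liver markers on the array 3 lay there in each group (sums 436 to 618 in ICGN and 277 to 577 in ICR at 8 weeks). The adrenal list holds Cyp11b1 and Cyp21a1 and the liver list Cyp7a1 and Cyp8b1. These 2 lists are thus partly made of P450 genes and are no independent check on them.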

How the data were processed

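Total RNA of renal cortex was labelled with biotin and hybridised to Mouse Genome 430 2.0 arrays, per the labels' protocols. The deposited values are linear MAS5 intensities, 1 for each probe set and array. MAS5 is named in the submitters' processing notes without a version. In the platform annotation 34958 probe sets carried a single symbol, 932 carried several and 9211 had no symbol; 34754 matched RefSeq genes of GRCm38.p6 by gene ID. With R 4.3.3 and limma 3.58.1, arrays were scaled to a common median of 40.4, the offset was the 25th percentile of that table (11.1), and the brightest probe set stood for a gene. Arrays were then rescaled so that the median of the 12385 tested genes was equal on all, so that printed and tested folds are 1 value. Scaling on all probe sets alone is an alternative. A model of 4 group means (8 residual degrees of freedom) with a mean-variance trend gave each contrast, adjusted by Benjamini-Hochberg, and the method was tested on simulated data. Each group's 3 arrays limit the precision of every value.

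Named genes were the called P450 genes of 1 or more on the log2 scale in a strain comparison or the interaction, the 5 with the largest called age changes, the 2 brightest of each role, and up to 4 called genes of each companion list, with Ephx2, Ppara and Hnf4a. Values of the remaining called P450 genes, and the lists of heme breakdown, flavin monooxygenases and sex-biased genes, were added after values had been seen. The members and lists were chosen with earlier results of these data known. Alternatives changed the offset, scaling, filter, probe set rule and variance estimate, blocked on replicate number, left out each array, or used the 6 arrays of a comparison alone.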

Additional observations from a re-analysis of the deposited data

Results flagged for a closer look

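The strain difference changed between the ages for 6 P450 genes, against 9.26% of all genes. The test was limma's interaction of strain and age, called at 0.05 after adjustment. Its value is the log2 fold change of ICGN over ICR at 8 weeks minus that at 4 weeks. The interaction was 0.78 for Cyp1b1, 2.70 for Cyp4a14, 0.74 for Cyp4f16, -0.98 for Cyp27a1, -3.17 for Cyp2d9 and -4.33 for Cyp4a12a. The call was lost in 8 of 24 alternative settings for Cyp4f16, and in 2 of 25 each for Cyp4a14 and Cyp27a1. Cyp2d9 was called at both ages with opposite signs.

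The same test picked out genes of the companion and marker lists. Heme and redox genes had -1.14 (Cpox), -0.92 (Fech), -0.59 (Slc25a38), -3.33 (Hmox1) and -0.59 (Cyb5b). Regulators had 3.07 (Bcl6) and -0.55 (Ghr), and the PPAR alpha target Acot3 had 1.29. Among genes of arachidonic acid and its epoxides, Ptgs2 had 1.49, Pla2g4a 1.13, Ptgds 2.64 and Ephx2 -0.83. The flavin monooxygenase Fmo5, a foreign compound oxidase outside the P450 family, had -2.60. Genes known to differ between the sexes in mouse kidney had 4.57 (Slc7a12), -2.58 (Slc22a7) and -1.76 (Aspdh). The tubule markers Slc13a3, Slc22a6 and Pvalb had -1.0, -0.90 and -0.83. These interactions of companion and marker genes were not checked under the alternative settings.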

How the results depend on the processing

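Counts of called P450 genes stayed within 1.5 times the reported ones under all but 3 alternatives. With a filter at the 75th percentile, which left 16 P450 genes, 9 were called between the strains at 8 weeks. Leaving out 1 array at a time gave 13 to 17 called genes at 8 weeks, 2 to 5 at 4 weeks (5 without ICR replicate 3), 4 to 7 in the interaction, 7 to 11 with age in ICGN (7 without ICGN replicate 1 of 4 weeks) and 14 to 18 with age in ICR. With the most variable probe set standing for a gene, the age change in ICR turned to -0.16 for Cyp2j5 (adjusted p = 0.314) and 0.99 for Cyp4a31 (adjusted p = 0.35), because another probe set was used. Over 110 single-gene results, 2080 recomputed values kept direction and call, 185 kept direction and lost the call, and 2 reversed. With the replicate block 15, 3, 6, 12 and 15 P450 genes were called at 8 weeks, at 4 weeks, in the interaction and with age in ICGN and ICR. Same-numbered arrays correlated from -0.09 to 0.09 in their deviations, so the numbers were not taken to pair samples. Of all genes called at 8 weeks 39.2% were higher in ICGN, against 24.6% with a common median over all probe sets (where the median gene lay at -0.18), 50.5% after quantile normalization and 60.0% on the authors' scale. At 4 weeks these shares were 49.5%, 53.2%, 60.1% and 62.3%, and in the interaction 46.1%, 28.2% and 54.1% (no value on the authors' scale). All genes called at 4 weeks numbered 523, but 242 or 226 without ICGN replicate 1 or 2 and 325 or 328 without ICR replicate 2 or 3. The interaction called 1147 genes, but 726 or 583 without ICGN replicate 1 or 3 of 8 weeks, and 684, 701 or 730 without ICGN replicate 2, ICGN replicate 3 or ICR replicate 2 of 4 weeks. The causes of these shifts were not tested.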

Other observations

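Of 4 tested flavin monooxygenases, oxidases of foreign compounds outside the P450 family, 2 were lower in ICGN at 8 weeks (19.6% of all genes were lower). Fmo5 had 163, 285 and 147 in ICGN and 449, 754 and 904 in ICR (log2 fold change -1.77 ± 0.37 SE, 3.41-fold, adjusted p = 0.00257), and at 4 weeks 121, 135 and 159 in ICGN and 60.9, 153 and 38.9 in ICR (adjusted p = 0.243). Fmo1 had 5438 ± 373 in ICGN and 7129 ± 451 in ICR at 8 weeks (SD, n = 3 each, adjusted p = 0.0352), a call lost when any 1 of the 6 arrays of that age was left out. Slc7a12, an amino acid carrier known to be higher in female mouse kidney, had 774, 210.3 and 439 in ICGN and 45.7, 48.2 and 20.6 in ICR at 8 weeks (log2 fold change 3.17 ± 0.40 SE, 9.02-fold, adjusted p = 7.72e-05), and 1049, 1394 and 588 in ICGN and 2039, 3081 and 2538 in ICR at 4 weeks (adjusted p = 0.0689).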
